A study of Mus musculus with 32 samples.

Results

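Cytosolic ribosomal protein genes are the genes whose products, with the ribosomal RNAs, build the small subunit (Rps genes) and the large subunit (Rpl genes) of the ribosome of the cytoplasm. The members were chosen by symbol alone, as every gene whose name is Rps or Rpl followed by a digit, without the S6 kinases (Rps6k) and without entries named as pseudogenes (-ps with or without a number). This gave 85 of the 24940 genes of the table, 34 Rps and 51 Rpl, of which 73 are canonical subunit genes and 12 are paralogs or other entries. RNA-seq came from 16 libraries of 4 kinds of mononuclear phagocyte sorted from mouse lung, 2 for each cell type and strain: airspace-dwelling alveolar macrophages (AM), interstitial macrophages (IM), and monocytes of an inflammatory (iMo) or a patrolling kind (pMo). The strains were C57BL6J and DBA2J, both inbred, and all mice were untreated. No age, transgene or deletion is given in the labels used here, and since no label says that the 2 libraries of a group came from separate animals, p-values measure only the spread between these libraries. ATAC-seq, which marks open chromatin, was given as 1 list of reproducible peaks per cell type and strain.

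A ribosome holds 1 copy of nearly every one of these proteins, and cells are known to make them in step. Their mRNAs begin with a C followed by a run of pyrimidines, the 5′ terminal oligopyrimidine (TOP) motif, through which mTOR and the RNA-binding protein Larp1 control translation, so that RNA level and protein output can part. The genes are also known for many processed copies elsewhere in the genome, and several carry small nucleolar RNAs in their introns.

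RNA levels are given as TPM, a read density scaled to the library, for which the length used was that of the whole gene from start to end, introns included. Levels of different genes are therefore per kilobase of gene, and a gene with long introns has a lower TPM than its mRNA would give. The read number behind each value could be recovered, as the TPM times the gene length was a whole multiple of 1 step in every library, and libraries held 6.68 to 22.6 M reads (M, 1e6) over the listed genes. The entries Rn45s and Mir6236, which collect ribosomal RNA, held 22.6% to 67.6% of the TPM sum of a library and most in AM, so all other levels of a library move with that share. Summed markers of the labelled type were highest in that type in all libraries, with AM markers at 765 to 1765 TPM in AM and at most 564 elsewhere, IM markers at 2404 to 6457 and at most 743 elsewhere, iMo markers at 2202 to 3102 and at most 1672 elsewhere, and pMo markers at 4709 to 6005 and at most 2504 elsewhere. The 10 neutrophil markers summed to 2875 to 4728 TPM in IM and to at most 240 TPM in the other types.

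The start regions below are shown for 7 genes that the results turn on: Rps9 and Rpl4, among the highest of each subunit, Rpl34, Rps2 and Rps25, which differed between the strains in every cell type, and Rpl35 and Rps28, which were high in DBA2J IM. Each is 40 bases before the start base to 20 bases from it on, 5′ to 3′ on the strand of the gene, from RefSeq on GRCm38.p6. Capitals mark the longest unbroken run of C and T that reaches within 10 bases of the start.
Rps9: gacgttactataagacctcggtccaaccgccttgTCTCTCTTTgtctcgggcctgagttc
Rpl4: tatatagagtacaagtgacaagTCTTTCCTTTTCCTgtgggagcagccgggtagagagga
Rpl34: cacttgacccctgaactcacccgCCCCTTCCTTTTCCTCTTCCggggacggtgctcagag
Rps2: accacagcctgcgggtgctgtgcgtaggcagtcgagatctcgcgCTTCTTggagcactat
Rps25: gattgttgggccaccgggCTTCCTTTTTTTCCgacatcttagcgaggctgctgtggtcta
Rpl35: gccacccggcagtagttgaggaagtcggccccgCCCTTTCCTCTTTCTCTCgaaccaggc
Rps28: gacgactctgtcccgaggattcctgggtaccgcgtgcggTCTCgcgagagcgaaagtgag
The windows are chr7:3704001-3704060 (Rps9, + strand), chr9:64173347-64173406 (Rpl4, +), chr3:130730318-130730377 (Rpl34, -), chr17:24720023-24720082 (Rps2, +), chr9:44407674-44407733 (Rps25, +), chr2:39005112-39005171 (Rpl35, -) and chr17:33824543-33824602 (Rps28, -).

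Of the 85 genes 65 had a start region in the RefSeq table, 54 of them canonical. A pyrimidine run of at least 8 bases at the start was found in 24 of these 54 (44.4%), against 14.5% of 9234 tested genes. A C at the annotated start base followed by 4 pyrimidines stood in 10 of 54 (18.5%) against 2.5%. The run at the annotated start is short in Rps2 and Rps28 and long in Rpl34 and Rpl35, so genes of each pattern described below occur with a short and a long one. Whether transcription begins at the annotated base was not tested, so a short run does not show that an mRNA lacks the TOP motif. Within 250 bases before and 50 after the start, the ETS motif CCGGAA occurred in 53.7% of the canonical genes and 28.8% of all, TATAA in 25.9% and 13.8%, the YY1 motif AAGATGG in 14.8% and 7.86%, the CRE motif TGACGTCA in 9.26% and 3.06%, the SP1 motif GGGCGG in 57.4% and 61.7%, the E-box CACGTG in 11.1% and 10.3%, and the AP-1 motif TGACTCA in 3.70% and 3.62%. Both strands were searched, TGACTCA and TGACGTCA begin alike but no match of one is a match of the other, and a match is a description of these letters and not a site of binding.

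The levels of the members spanned a wide range although their products are built into the ribosome in like number. Rpl8, a large subunit protein next to the catalytic centre, was the highest at 738 ± 308 TPM (mean ± SD over 16 libraries), and among the next were Rps9 (400 ± 230), Rps15 (343 ± 190), Rpl4 (341 ± 145) and Rps3 (205 ± 77.6). At the other end of the canonical genes stood Rps7 (1.86 ± 0.925), Rps29 (1.64 ± 1.77), Rps16 (1.56 ± 1.35), Rpl24 (1.52 ± 1.14), Rpl36a (1.39 ± 2.82) and Rps23 (1.10 ± 1.33), the last a small subunit protein of the decoding site. The highest canonical mean was 670 times the lowest. The 5 highest genes held 46.3% of the summed level and the 10 highest 64.4%, and 34 of 85 genes had a mean under 10 TPM.

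**Figure D1:**
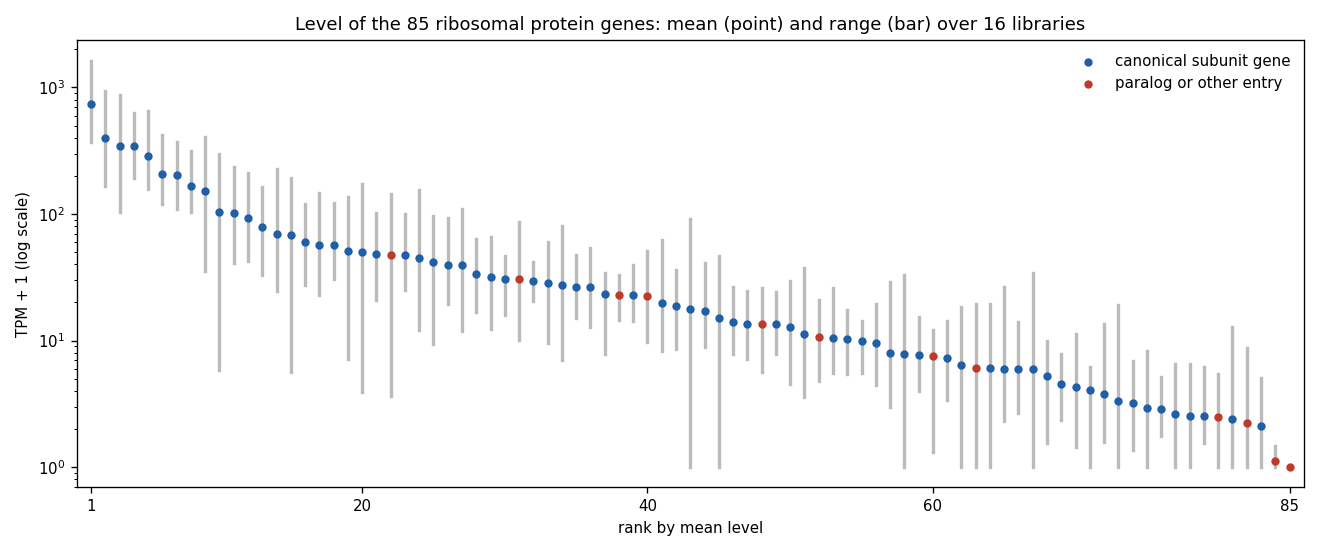
Level of the 85 ribosomal protein genes in the order of their means (horizontal axis, rank), as TPM + 1 on a log axis. Points are means over 16 libraries and bars run from the lowest to the highest library, blue for canonical subunit genes and red for paralogs or other entries, and means fall from 738 TPM for Rpl8 at rank 1 to 0 for Rpl10l at rank 85.

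Low levels rest on few reads. The median read number per library was at least 100 for 40 members and under 10 for 15, and 18 members had no read in at least 1 library. Rpl8 had a median of 2510 reads and Rps23 of 1.5. Among canonical genes the 10 highest had a median of 0 other entries in the gene name table named as their copies. The 10 lowest had a median of 2, as had all 73. Over the 73 genes the Spearman correlation of mean TPM was -0.34 with named copies and 0.03 with gene length. Both are given as a description, since genes share libraries. No source used here says how reads that fit several places were counted, and the part of this in the low levels was not tested.

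Some entries cannot be told apart. Rps27 and Rps27rt lie on the same bases and differed by at most 0.018 TPM, Rpl34 shares 99.5% of its length with the pseudogene entry Rpl34-ps1, Rpl26 with Gm15772 (99.2%) and Rpl30 with Gm12191 (100%), each at nearly the same level. Rps15 lies wholly opposite Bc1, and Rps4l lies inside Tmtc1 on the other strand. The excluded entry Rpl14-ps1 was at 384 TPM, above all members except Rpl8 and Rps9, and Rpl14 itself at 59.6 TPM.

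The paralogs and other entries ran from 46.8 TPM to 0. The highest of them, Rps4l, is listed under a non-coding RefSeq transcript, as is the canonical Rpl22. Rps4l, named as an S4-like gene, had 46.8 ± 50.2 TPM (SD, n = 16), Rpl37rt 29.6 ± 18.3, Rpl7l1, a nucleolar relative of Rpl7, 21.9 ± 6.27, Rpl36al, an expressed copy of Rpl36a, 21.7 ± 11.7, Rps27l, a p53 target, 12.5 ± 6.06, and Rpl22l1, the paralog of Rpl22, 9.63 ± 5.39. Rps19bp1, a regulator of the deacetylase Sirt1 and no ribosomal protein, had 6.51 ± 2.70, Rps27rt 5.12 ± 4.41, the muscle paralog Rpl3l 1.51 ± 1.13 and Rpl32l 1.21 ± 2.07. The testis paralogs Rpl39l and Rpl10l were at 0.112 TPM and at 0 reads in all 16 libraries. A count of 0 does not exclude an expected number of up to 3 reads per library. Both paralogs were below the minimum of 1 TPM on average, so 83 of the 85 members were tested.

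The summed level of the 85 genes was highest in iMo, at 6762 ± 1720 TPM (SD, n = 4), against 4269 ± 1511 in IM, 3694 ± 284 in AM and 3516 ± 793 in pMo. The 4 iMo libraries lay at 9265 and 5882 (C57BL6J) and 6458 and 5441 TPM (DBA2J), and the 4 pMo libraries at 3798, 4483, 3111 and 2674 TPM, with no overlap. The strains did not overlap in IM, at 2560 and 3525 TPM in C57BL6J and 5066 and 5925 TPM in DBA2J, nor in pMo, where C57BL6J was the higher one. In AM, between 3277 and 3905 TPM, and in iMo they overlapped. The difference of iMo and pMo had an exact two-sided permutation p of 0.0556, the smallest that 36 arrangements within strains allow, and 0.222 adjusted over 4 comparisons. The other 3 comparisons had exact permutation p of 0.444 (AM and IM), 0.210 (macrophages and monocytes) and 0.804 (strains). These test a difference averaged over strains or cell types, and differences of opposite sign cancel in it: AM lay above IM in C57BL6J (3760 and 3905 against 2560 and 3525 TPM) and below it in DBA2J (3277 and 3833 against 5066 and 5925 TPM), with no overlap in either strain. As a share of the TPM outside the ribosomal RNA entries the members took 1.49% ± 0.307 in iMo and 1.33% ± 0.123 in AM. They took 1.05% ± 0.360 in IM and 0.962% ± 0.175 in pMo, which places AM above IM where the plain sum places it below. On this scale AM still lay above IM in C57BL6J, at 1.38% and 1.41% against 0.662% and 0.855%. In DBA2J the shares overlapped, at 1.38% and 1.15% in AM and 1.24% and 1.46% in IM, so the reversal between strains depended on the scale.

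**Figure D2:**
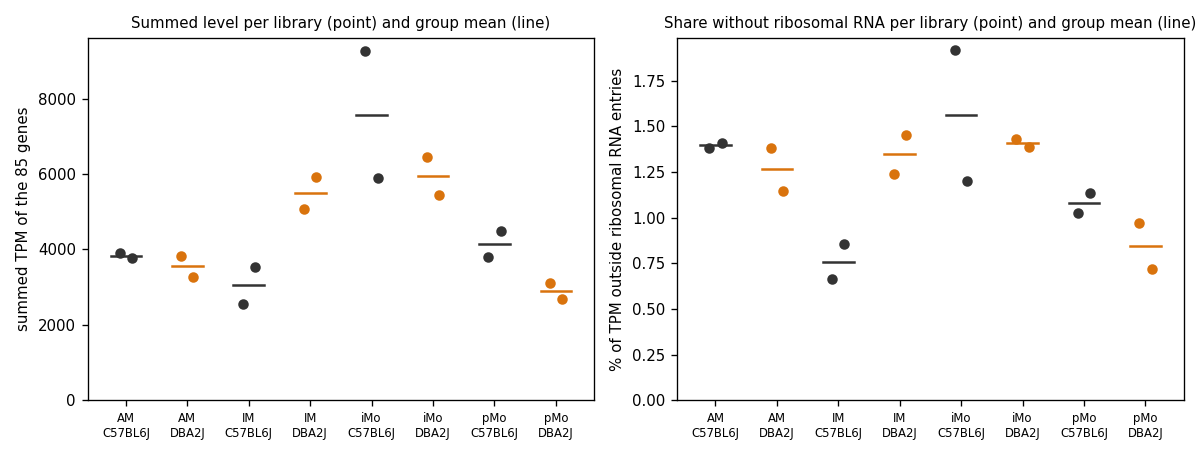
Left, summed TPM of the 85 ribosomal protein genes, and right, their share of the TPM outside the ribosomal RNA entries in percent, for each cell type and strain (dark, C57BL6J; orange, DBA2J). Points are libraries and lines group means; the sums of the 4 iMo libraries, 5441 to 9265 TPM, lie above those of all pMo libraries, and the DBA2J IM libraries above the C57BL6J IM libraries.

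The comparison of iMo with pMo addresses what separates the blood-derived inflammatory from the patrolling monocyte, and here members were mostly higher in iMo. Rps9, a small subunit protein, had 937, 476, 797 and 718 TPM in iMo and 214, 242, 297 and 243 TPM in pMo (log2 difference 1.52 ± 0.21 SE, limma adjusted p = 3.1e-04). Rps26, at the mRNA exit site, had 233, 201, 169 and 120 TPM in iMo against 70.35, 50.6, 51.3 and 55.3 TPM in pMo (1.62 ± 0.20, adjusted p = 1.5e-04). In both genes every iMo library lay above every pMo library. Rps4x, the X-linked S4 gene, differed by 1.32 ± 0.19, Rps15 by 1.32 ± 0.27 and Rpl41, which codes for the smallest of the proteins, by 2.26 ± 0.69 (adjusted p = 0.034; 0.072 with median-of-ratios scaling). Among the other called genes were Rpl4 (548 ± 99.4 against 260 ± 76.6 TPM, SD, n = 4 each) and Rps3 (309 ± 74.0 against 152 ± 30.7 TPM).

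In all, limma called 29 of 83 members higher in iMo (34.9%) and 4 lower (4.82%), against 18.9% of 12277 genes higher and 6.36% lower. Among the 4 lower in iMo were Rpl11, Rps7 and Rps29, each under 10 TPM in both types. The median difference was 0.39 over the members and 0.13 over all genes. Median-of-ratios scaling, which sets the typical gene to no difference, gave 18 and 6, and TPM recomputed without the ribosomal RNA entries 16 and 8. The count of lower members was 7 without C57BL6J iMo replicate 1. Values within each strain were 13 higher and 2 lower in C57BL6J and 19 and 2 in DBA2J. The shares of all genes under these other settings are not given here. B cell markers summed to 1110 to 1211 TPM in DBA2J pMo, 105 to 164 TPM in C57BL6J pMo and 62.0 to 274 TPM in iMo, and their part in these differences was not tested. Of the 9 B cell markers none was at 0 in all pMo libraries, and Cd22 was the highest there, at a mean of 479 TPM. Between the strains in pMo, 1 of the 9 was called higher in DBA2J and none lower (3 and 0 with median-of-ratios scaling). In bulk libraries, fewer cells of a type and less RNA per cell cannot be told apart.

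Ribosomal protein genes that the symbol rule misses were also called. Rplp0, of the stalk, had 574 against 216 TPM (log2 difference 1.40), Rplp1 810 against 374 (1.11) and Rack1, the scaffold on the small subunit, 905 against 431 (1.07), and these 3 of 7 were called higher in iMo and none lower (2 and 0 with median-of-ratios scaling). Of 21 translation factors and other genes with TOP mRNAs 9 were called higher in iMo and none lower (10 and 2 with median-of-ratios scaling), among them Eef2, the elongation factor of translocation (2678 against 1227 TPM, log2 difference 1.13), Eef1a1 (0.96), Pabpc1 (1.00) and Eif3f (1.60). Among 8 host genes of small nucleolar RNAs 3 were higher, namely Snhg1, Zfas1 and Epb41l4aos, and none lower (2 and 0). Of 36 genes of ribosome assembly in the nucleolus 2 were higher (Npm1 and Polr1c) and 2 lower (Nop56 and Polr1a), or 1 and 3 with median-of-ratios scaling, and of 77 mitochondrial ribosomal protein genes 15 were higher and 1 lower, or 2 and 4 with median-of-ratios scaling. Of 21 genes of the mTOR and Myc pathways 6 were higher and 2 lower, or 3 and 3 with median-of-ratios scaling, among them Larp1 (36.3 against 22.3 TPM, 0.67) and, lower in iMo, the mTOR inhibitor Ddit4 (30.7 against 114 TPM, -1.73).

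Between AM and IM, the lung's macrophage types of airspace and tissue, the direction of most members depended on the scaling. Rps4l had 131, 143, 120 and 100 TPM in AM and 36.3, 78.3, 3.73 and 12.1 TPM in IM, all AM libraries lying above all IM libraries (log2 difference 2.58 ± 0.30, limma adjusted p = 2.2e-05). Rpl8 had 594 to 824 TPM in AM and 369 to 542 TPM in IM (0.76 ± 0.20, adjusted p = 0.0046). Both kept this direction with median-of-ratios scaling (3.44 and 1.66) and when centred on the members.

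Lower in AM were Rps28, a small subunit protein near the mRNA exit (0.779 ± 0.786 against 17.0 ± 14.5 TPM, -2.98 ± 0.46), Rps24 (8.68 ± 2.05 against 35.3 ± 24.6 TPM, -1.63 ± 0.22) and Rps4x (26.4 ± 1.62 against 89.6 ± 51.8 TPM, -1.52 ± 0.19). These 3 were also lower with median-of-ratios scaling, at -2.45, -0.80 and -0.64. Their wide spread in IM comes with the strain difference there: Rps24 had 15.0 and 13.8 TPM in C57BL6J IM and 51.0 and 61.6 TPM in DBA2J IM. Rpl15 fell by 0.98 on the log2 scale but by 0.14 with median-of-ratios scaling (adjusted p = 0.415).

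In all, 3 of 83 members were called higher and 31 lower in AM (3.61% and 37.3%), against 9.19% and 61.1% of all genes. The median was -0.39 over the members and -0.68 over all genes. Under median-of-ratios scaling, where the median of all genes moved to 0.06, the counts were 24 and 10 and the members' median 0.39. Within C57BL6J, which leaves out the DBA2J IM libraries, 9 were higher and 10 lower with a median of 0.12, and within DBA2J 1 was higher and 41 lower with a median of -0.84. The shares of all genes called under these other settings are not given here. Translation factors with TOP mRNAs were called in 0 of 21 higher and 13 lower (7 and 4 with median-of-ratios scaling), ribosome assembly genes in 3 of 36 higher and 15 lower (20 and 1), mitochondrial ribosomal protein genes in 7 of 77 and 24 (45 and 4), mTOR and Myc genes in 1 of 21 and 14 (11 and 5) and host genes of small nucleolar RNAs in 0 of 8 and 2 (2 and 0).

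Macrophages (AM and IM) and monocytes (iMo and pMo) did not separate in any member. Limma called 9 members higher and 18 lower in macrophages (10.8% and 21.7%), against 18.9% and 35.9% of all genes, and no member had all 8 macrophage libraries on 1 side of all 8 monocyte libraries. The lean to lower depended on the scaling, with 11 higher and 4 lower under median-of-ratios scaling and 17 and 1 without the ribosomal RNA entries. Within C57BL6J 3 were higher and 34 lower with a median of -0.57, and within DBA2J 18 were higher and 0 lower with a median of 0.30 (21 members had an unadjusted p under 0.05 in DBA2J). The shares of all genes under these other settings are not given here, so no shift is read as particular to the members. Rps4l was higher in macrophages (78.0 ± 54.6 against 15.6 ± 14.2 TPM, SD, n = 8 each; 2.15 ± 0.21, limma adjusted p = 6.1e-06), with its highest values in AM. Outside AM it had 36.3 and 78.3 TPM in C57BL6J IM and 37.6 and 35.1 TPM in C57BL6J iMo, but 3.73 and 12.1 TPM in DBA2J IM.

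The strain comparison addresses which genes differ between C57BL6J and DBA2J in each cell type, and 6 members held all 8 DBA2J libraries apart from all 8 C57BL6J libraries. Below all C57BL6J libraries were 3 of 83 (3.61%), against 0.383% of all genes, and above them also 3 (3.61%), against 0.301%. Of these 6, the 5 described here are Rpl29, Rps2, Rpl34, Rpl38 and Rps25.

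Rpl29, a large subunit protein also known as a heparin-binding protein, had 37.7 and 34.7 TPM in C57BL6J AM, 7.20 and 24.8 in IM, 89.7 and 37.3 in iMo and 15.9 in both pMo libraries, and from 0 to 2.03 TPM in the 8 DBA2J libraries. Its reads numbered 15 to 287 in the C57BL6J libraries and 0 to 7 in the DBA2J libraries. The DBA2J minus C57BL6J difference averaged over the cell types was -4.02 ± 0.32 (limma adjusted p = 9.4e-06).
Rps2, a small subunit protein, had 67.4 to 135 TPM in C57BL6J and 6.10 to 22.7 TPM in DBA2J, a difference of -2.64 ± 0.10 (adjusted p = 1.5e-08). Rpl34 had 34.5 to 154 TPM in C57BL6J and 11.03 to 21.1 TPM in DBA2J, a difference of -2.05 ± 0.17 (adjusted p = 1.2e-05). In all 3 the C57BL6J libraries lay above the DBA2J libraries with no overlap, and the iMo held the highest C57BL6J value.

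Rpl38, a large subunit protein known from its role in the translation of Hox mRNAs, had 0 to 1.69 TPM and 0 to 10 reads in C57BL6J. In DBA2J it had 19.5 and 16.0 TPM in AM, 38.0 and 37.1 in IM, 45.9 and 44.2 in iMo and 12.95 and 7.095 in pMo, with 41 to 261 reads, a difference of 3.81 ± 0.21 (adjusted p = 4.3e-07). Rps25, a small subunit protein known for its part in initiation at internal ribosome entry sites, had 2.94 to 13.1 TPM in C57BL6J and 41.1 to 172 TPM in DBA2J (3.47 ± 0.24, adjusted p = 3.1e-06).
Within each cell type all 6 were called in the same direction, with differences from -5.08 for Rpl29 in iMo to 5.00 for Rpl38 in iMo. Among the 5 described genes, the smallest in each direction were Rpl34 in AM (-1.43 ± 0.34, adjusted p = 0.045) and Rps25 in pMo (1.97 ± 0.48, adjusted p = 0.049).

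**Figure D3:**
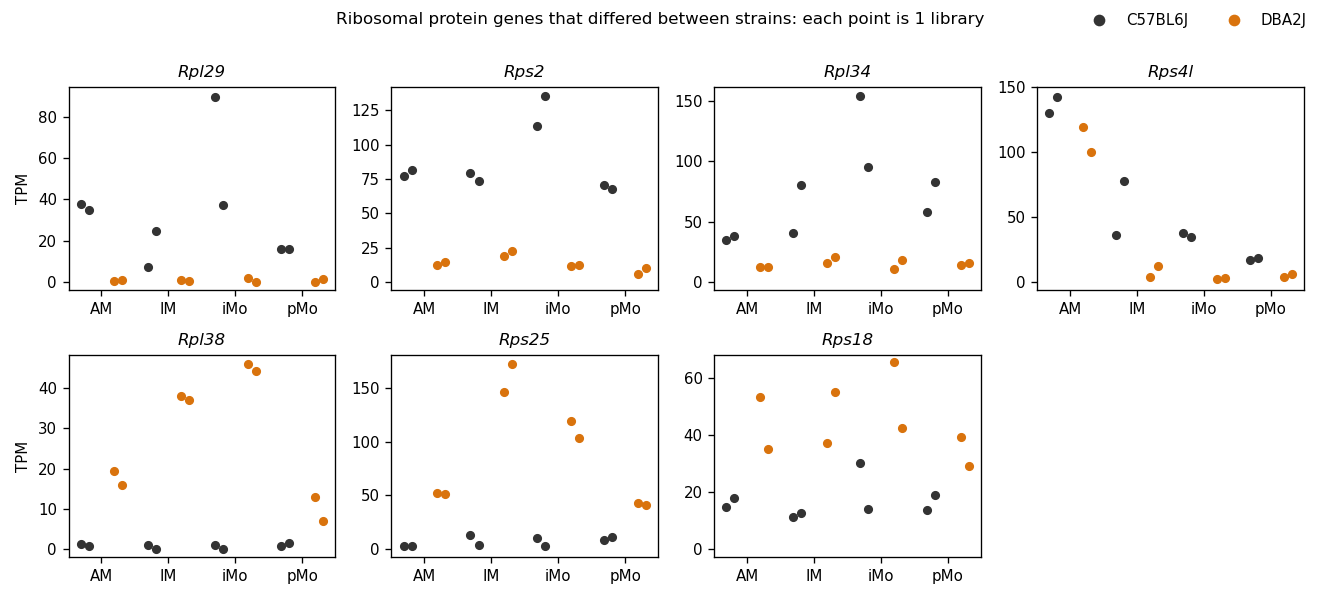
TPM of 7 ribosomal protein genes in each library, by cell type (dark, C57BL6J; orange, DBA2J; 2 libraries per group). Rpl29, Rps2 and Rpl34 are lower and Rpl38 and Rps25 higher in all DBA2J libraries; outside AM, Rps4l lies at 17.0 to 78.3 TPM in C57BL6J and 2.66 to 12.1 TPM in DBA2J, and Rps18 is higher in DBA2J with a small overlap.

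Rps18, a small subunit protein, also rose in DBA2J (16.7 ± 5.997 against 44.6 ± 12.2 TPM, SD, n = 8 each; 1.38 ± 0.18, adjusted p = 4.0e-04), with 1 C57BL6J iMo library (30.2 TPM) above the lowest DBA2J library (29.0 TPM). Rps3a1 rose by 1.08 ± 0.17 (adjusted p = 0.0014). Rps4l fell by 1.99 on the log2 scale on average (adjusted p = 9.4e-05), but had 120 and 100 TPM in DBA2J AM against 131 and 143 in C57BL6J AM (-0.32 ± 0.43, adjusted p = 0.914). In the other types it had 3.73 and 12.1 against 36.3 and 78.3 TPM in IM (-2.79 ± 0.43), 2.66 and 3.13 against 37.6 and 35.1 in iMo (-3.26 ± 0.43) and 4.21 and 6.54 against 17.0 and 18.2 in pMo (-1.57 ± 0.43, adjusted p = 0.076). Averaged over the cell types, Rpl37rt and Rps15a fell by 0.76 and 0.64 on the log2 scale, and Rpl13a by 0.34. The direction did not hold in IM, where the differences were 0.61, 0.66 and 0.54 (adjusted p = 0.337, 0.115 and 0.107) and both DBA2J libraries lay above both C57BL6J libraries, while in the other types they ran from -1.44 to -0.43. Of these 3 genes Rpl37rt and Rpl13a did not pass with median-of-ratios scaling (adjusted p = 0.054 and 0.22). In all 8 members were higher (9.64%) and 7 lower (8.43%) in DBA2J, against 4.37% and 7.31% of all genes, with a median of -0.04 over the members.

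The 5 genes described were not among the lowest members, with mean levels from 14.2 TPM (Rpl38) to 50.5 TPM (Rps2). Each of the 6 had at least 1 entry named as its copy in the gene name table (median 3.5, range 1 to 12). Of the 60 members with neither of the patterns described here, 43 had such an entry (median 2, range 0 to 25). Reads were placed on the mm10 genome, which is that of C57BL6J, per the submitters' processing notes, and no DBA2J sequence was used here. Near-identical copies and bases that differ between the strains could shift such counts, and their part in these differences was not tested. All 6 had a peak of open chromatin within 500 bp of the start in all 8 peak sets, in both strains.

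In interstitial macrophages the strain difference took in many more members, and nearly all of it was higher in DBA2J. Limma called 28 of 83 members higher (33.7%) and 5 lower (6.02%) in DBA2J IM, against 3.77% and 6.74% of all genes. The median difference was 0.87 over the members and -0.01 over all genes, and 69 of 83 members were above 0. Median-of-ratios scaling gave 22 and 4, with a median of 0.84. For this scaling and for fits with 1 library left out, the shares of all genes called are not given here. The calls fell to 20 in all without DBA2J IM replicate 1 and to 18 without DBA2J IM replicate 2.

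In the other cell types the same comparison called few members beyond the 6 above. It called 3 higher and 3 lower in AM (3.61% each, against 1.99% and 1.3% of all genes), 3 higher and 5 lower in iMo (3.61% and 6.02%, against 1.31% and 2.16%) and 3 higher and 7 lower in pMo (3.61% and 8.43%, against 1.36% and 2.3%). The median over the members was -0.09 in AM, -0.32 in iMo and -0.49 in pMo, beside 0.09, -0.14 and -0.15 over all genes. Both DBA2J libraries lay below both C57BL6J libraries in 44 members in pMo (53.0%, against 25.9% of all genes). This held for 29 in AM (34.9% against 17.9%) and 32 in iMo (38.6% against 30.5%). They lay above in 9 in pMo (10.8% against 13.2%), 17 in AM (20.5% against 35.2%) and 7 in iMo (8.43% against 10.6%). Beyond the 6, the called genes were Rps4l and Rps15a in iMo and included Rps15a, Rpl36al and Rpl4 in pMo, all lower in DBA2J. Counts with 1 library left out stand without the shares of all genes. The pMo count fell from 10 to 3 without C57BL6J pMo replicate 2, to 3 without DBA2J pMo replicate 1 and to 6 without DBA2J pMo replicate 2.

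Set against the other members, by centring each library on the members, single genes still stood apart. In IM the strain difference was then 1.98 for Rpl35, -3.77 for Rps4l and -1.34 for Rps12, and 15 members were called higher and 16 lower, since centring takes the common part away. In iMo minus pMo, Rps26 (1.22), Rps15 (0.92), Rps4x (0.92), Rpl14 (0.88) and Rpl32 (0.77) stood above the other members. The joint locus of Rps27 and Rps27rt (-1.92) stood below, on 1 to 9 reads per library in iMo and 9 to 21 in pMo. Without centring it was not called (limma adjusted p = 0.078). In AM minus IM, Rpl18 (0.67) and Rps3 (0.61) joined Rps4l (3.11) and Rpl8 (1.29) above. Between the strains Rps18 was higher in iMo (1.83) and pMo (1.75), Rps3a1 in iMo (1.57) and Rps9 in pMo (0.97), and Rpl37rt was lower in AM (-1.24). All of these passed limma's adjusted threshold on that scale, which places a gene relative to the other members. In the main fit, without centring, none of the strain differences of Rps18, Rps3a1, Rps9 and Rpl37rt just given was called. Nor was Rps12 in IM (-0.36, limma adjusted p = 0.657), nor were Rpl18 (0.14) and Rps3 (0.08) in AM minus IM. Rps9 in pMo had 297 and 243 TPM in DBA2J against 214 and 242 TPM in C57BL6J.

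**Figure D4:**
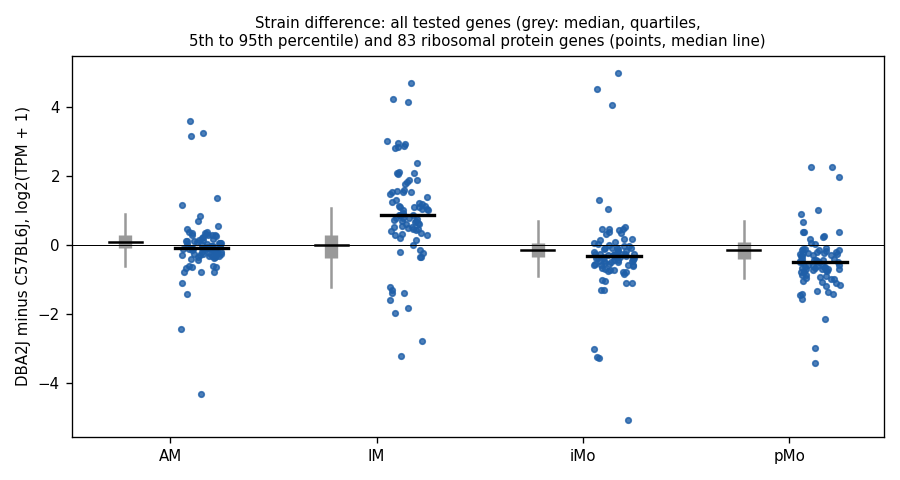
Difference DBA2J minus C57BL6J in log2(TPM + 1) in each cell type. Grey bars give the median, quartiles and 5th to 95th percentile of 12277 tested genes and blue points the 83 tested ribosomal protein genes with their median as a line, which lies at 0.87 in IM and between -0.49 and -0.09 in the other types.

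In both DBA2J IM libraries 18 of 83 members (21.7%) were higher than in all 14 other libraries, against 7.75% of all genes. The gap was widest in Rpl35, a large subunit protein at the exit tunnel, with 12.8 and 18.1 TPM in DBA2J IM and 0 to 1.34 TPM elsewhere (52 and 85 reads, against at most 8). Rps28 had 25.3 and 33.2 TPM against at most 4.75, Rpl19, which bridges the subunits, 21.1 and 25.5 TPM against at most 5.03, and Rpl21 11.9 and 12.4 TPM against at most 3.51. Rpl7 had 196 and 225 TPM against at most 99.8, and Rps24 51.0 and 61.6 TPM against at most 24.5. In these 6 genes the lower DBA2J IM library was 1.96 to 9.60 times the highest of the other 14. Rpl37a, Rps3a1, Rps4x and Rps25 were also among the 18, and the smallest gap was 1.00 times, in Rpl15.

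**Figure D5:**
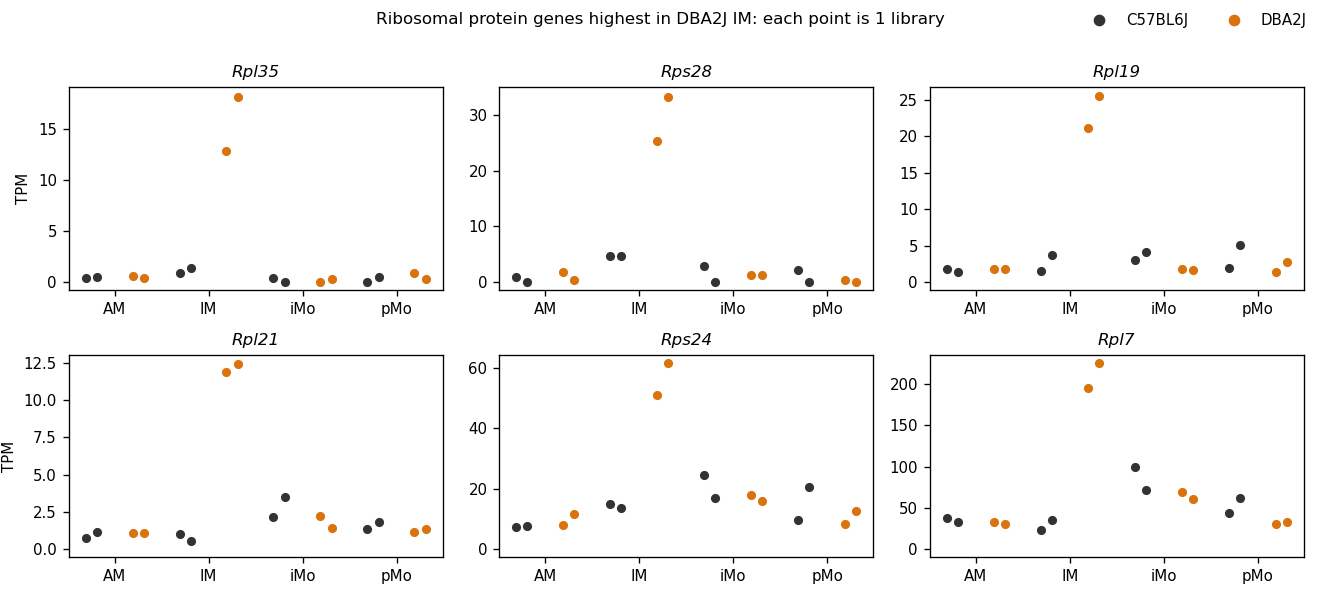
TPM of 6 ribosomal protein genes that were highest in the DBA2J IM libraries, in each library by cell type (dark, C57BL6J; orange, DBA2J). Both DBA2J IM points stand above the other 14 in each panel, as for Rpl35 at 12.8 and 18.1 TPM.

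Other groups of 2 libraries stood out in fewer members. Both C57BL6J iMo libraries were above all others in 10 members (12%), against 7.34% of all genes, among them Rps2, Rps3, Rps26, Rpl4 and Rpl41. Both C57BL6J IM libraries were below all others in 5 members (6.02%), against 0.253% of all genes: Rpl18, Rps18, Rps21, Rps19bp1 and Rpl3l. Of these, Rpl3l had 0 reads in both libraries and Rps19bp1 had 14 and 1. Over all members the C57BL6J IM libraries held 8452 and 9489 reads, the fewest of the 16 libraries, against 18709 and 25096 in DBA2J IM. Both DBA2J pMo libraries were lowest in 9 members (10.8%), against 2.86%, among them Rpl14, Rpl32, Rps20 and Rps4x. The C57BL6J IM libraries were also the least alike of all pairs, with a correlation over the members of 0.847 against 0.930 to 0.987 in the other groups.

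The test of whether the strain difference itself differed between cell types called 16 of 83 members (19.3%), against 4.03% of all genes. Among the widest ranges of strain differences were those of Rpl19 (2.84 ± 0.38 in IM, -0.73 ± 0.38 in iMo, interaction adjusted p = 0.0096), Rpl7 (2.81 ± 0.23 in IM, -0.70 ± 0.23 in pMo, 4.2e-04), Rpl21 (2.89 ± 0.25 in IM, -0.43 ± 0.25 in iMo, 9.9e-04), Rpl35 (2.96 ± 0.32 in IM, -0.08 ± 0.32 in iMo, 0.0073) and Rpl3l (1.89 ± 0.28 in IM, -0.77 ± 0.28 in pMo, 0.015). Rpl3l had 0 reads in both C57BL6J IM libraries, 13 and 10 in DBA2J IM and at most 18 in any library. In all 16 called members the IM difference was the highest of the 4. Rps2, lower in DBA2J throughout, fell least in IM (-1.83) and most in iMo (-3.30). With 1 library left out, the counts of called members stand without the shares of all genes. The number called fell to 8 without either C57BL6J AM library or DBA2J IM replicate 2, to 9 without DBA2J AM replicate 2 or DBA2J pMo replicate 1 and to 10 without DBA2J AM replicate 1.

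Markers of other cells also differed between the IM libraries of the strains. The 10 neutrophil markers summed to 4085 to 4728 TPM in DBA2J IM and 2875 to 3122 TPM in C57BL6J IM, with Cxcr2 and Ngp called higher, S100a8 highest at a mean of 1302 TPM and none at 0. The AM markers summed to 79.5 to 111 TPM in DBA2J IM and 416 to 564 TPM in C57BL6J IM, the iMo markers to 1644 to 1672 and 762 to 1009, the IM markers to 2404 to 2526 and 3297 to 6457, the B cell markers to 394 to 408 and 106 to 377, and the 7 endothelial markers to 26.2 to 116 and 162 to 234. The part of these cells in the IM difference was not tested.

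For the other genes of the pathway the difference between the IM of the strains is given by list, and no difference between lists was tested. Of 21 translation factors with TOP mRNAs 2 were higher in DBA2J IM, Eef1a1 (1.02) and Pabpc1 (0.65), and 1 lower, Eif3l (-0.66), with a median of 0.31, or 6 and 1, with a median of 0.28, under median-of-ratios scaling. Of the 7 ribosomal protein genes outside the symbol rule Rplp0 (0.84) and Fau (2.33) were higher and none lower, with a median of 0.84 beside the members' 0.87. With median-of-ratios scaling none of the 7 was called, at the same median of 0.84. Ribosome assembly genes had 1 of 36 called, Npm1 (1.31), and a median of 0.03 (3 higher with median-of-ratios scaling), mitochondrial ribosomal protein genes 3 of 77 higher and 1 lower with a median of 0.04, and host genes of small nucleolar RNAs 0 of 8 called with a median of 0.24. Of the mTOR and Myc genes Ddit4 (-2.76) and Tsc2 (-0.55) were lower and none higher (1 higher and 3 lower with median-of-ratios scaling).

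Open chromatin at the start was found for most members in every cell type. A peak lay within 500 bp of the start in 58 of 83 members in C57BL6J AM (59.8% of all genes), 66 in DBA2J AM (65.6%), 81 in C57BL6J IM (82.8%), 76 in DBA2J IM (69.7%), 74 in C57BL6J iMo (71.1%), 78 in DBA2J iMo (74.3%), 78 in C57BL6J pMo (73.3%) and 77 in DBA2J pMo (70.7%). The count was lowest in AM of both strains, and peak sets held 24429 to 70013 peaks, so counts of different sets are not on 1 scale. All 8 sets had a start peak in 55 members (66.3%), against 51.2% of all genes. The middle of the best peak lay at a median of 56 to 66.5 bp before the start.

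Start peaks were read as present or absent, which does not measure how open a start was. The start peaks of Rpl29, Rps2, Rpl34, Rpl38 and Rps25 were listed in all 8 sets, although RNA of Rpl29 in DBA2J and of Rpl38 in C57BL6J was near 0. By the authors' score, ranked within each list, the Rpl29 peak stood at percentile 86.5 in C57BL6J IM and 20.7 in DBA2J IM, and the Rpl38 peak at 94.0 and 51.1. In iMo Rpl29 stood at 75.9 and 58.2 and Rpl38 at 61.7 and 65.3, in pMo at 74.7 and 42.3 and at 66.5 and 51.4, and in AM at 20.2 and 26.2 and at 56.1 and 45.0. The lists differ in length, so no change between strains is read from these ranks. Of the 18 members highest in DBA2J IM, 11 had a start peak in all 8 sets. Rps4l had a start peak in C57BL6J IM and C57BL6J iMo and in no other set, AM included, where its RNA was highest. Rpl4, the fourth highest member, had 1 in C57BL6J IM alone, as had Rpl37rt, while Rpl3l and Rpl32l had none. Peaks are lists per group with no replicate, so these are descriptions.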

How the data were processed

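RNA-seq values were deposited by the authors as TPM per gene, and ATAC-seq as peak lists with a score per peak, 1 list per cell type and strain made from 2 libraries, per the file headers and labels. The submitters' processing notes name mm10, STAR, Bowtie and HOMER, without roles or versions. The members and all gene lists were chosen with earlier results of these data known. No symbol ends in -ps alone, so the rule was read as -ps with an optional number, which left out 6 entries, and Rpl32l was put among the paralogs after the table was seen.

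Levels were tested as log2(TPM + 1) with limma 3.58.1 (R 4.3.3), a mean for each of 8 groups, 16 libraries, 8 residual degrees of freedom, eBayes with a trend, over 12277 genes that averaged 1 TPM or more. Calls had a Benjamini-Hochberg adjusted p under 0.05 over all genes of a contrast, and errors on log2 differences are SE. Fold changes of low genes are understated on this scale. Some members are not reported here by name, while counts and sums include them. Genes were named by rule: all paralogs, the 6 highest and lowest canonical genes, up to 5 per direction and contrast by size among called genes of at least 10 TPM with no overlap of libraries, the same after centring on the members, and 6 from the interaction; examples beyond these, and those in group descriptions, were chosen after their values were seen. Sums were tested by exact permutation within strain or cell type. Recovered reads were whole within 0.1 for all of 5491 to 9115 low values per library, and a fit of them with voom was an added alternative. In simulated data the fit was tested with known changes. No label says whether replicate numbers mark a shared animal or day, and the main fit used no block. Residuals of same-numbered libraries within a strain correlated with a median of 0.02 (12 pairs, 2 over 0.1). With 2 libraries per group, such correlations cannot exclude pairing. Peaks were assigned by distance in Python 3.11.15 (pandas 2.3.3), and matplotlib 3.10.9 drew the figures.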

Additional observations from a re-analysis of the deposited data

Results flagged for a closer look

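Members whose strain difference differed between cell types by the interaction F-test of limma are listed with the adjusted p of that test over 12277 genes. Among them were Rpl7 (4.2e-04), Rpl21 (9.9e-04), Rpl35 (0.00732), Rpl19 (0.00959), Rpl32 (0.0101), Rpl3l (0.0145), Rps15a (0.0216), Rps4x (0.0228), Rps20 (0.0271), Rps24 (0.033), Rps2 (0.0367), Rps3 (0.0383), Rpl4 (0.0438) and Rpl36al (0.0454). With median-of-ratios scaling Rps3 (0.195), Rpl4 (0.164) and Rpl36al (0.061) no longer passed. Groups of 2 libraries are too small for a test of single outlying libraries.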

How the results depend on the processing

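Counts of members called higher and lower are given as pairs. They stand without the shares of all genes under the same settings, so no shift is read as particular to the members. AM minus IM, 3 and 31, became 24 and 10 with median-of-ratios scaling, 14 and 14 without the ribosomal RNA entries, 15 and 11 centred on the members, 9 and 17 with recovered reads in voom, 9 and 10 within C57BL6J and 1 and 41 within DBA2J, and 2 to 4 and 24 to 34 with 1 library left out. For iMo minus pMo, 29 and 4 became 18 and 6, 16 and 8, and 15 and 9 under the first 3 of these, 13 and 2 within C57BL6J and 19 and 2 within DBA2J, and 22 to 33 and 3 to 7 with 1 library left out, the 7 without C57BL6J iMo replicate 1. For macrophages minus monocytes, 9 and 18 became 11 and 4 with median-of-ratios scaling, 17 and 1 without the ribosomal RNA entries, 8 and 8 with voom, 3 and 34 within C57BL6J and 18 and 0 within DBA2J, and 6 to 10 and 13 to 22 with 1 library left out.

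With the replicate number as a block, the averaged strain difference had 5 and 4 members in place of 8 and 7, IM 21 in place of 33, pMo 4 in place of 10 and the interaction 10 in place of 16. It moved no other count by over 1.5 times. No label says whether these numbers pair libraries, so which of the 2 fits is the better one cannot be told. With 1 library left out, the averaged strain counts were 7 to 12 and 5 to 9, and the calls 5 to 7 in AM, 18 to 38 in IM, 7 to 9 in iMo, 3 to 12 in pMo and 8 to 21 in the interaction. AM calls were 10 with voom in place of 6, and pMo calls 6 without a filter on low values. Counts of start peaks stayed within 1.5 times with windows of 100 and 1000 bp and with equal numbers of peaks.

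Of 49 named differences of single members 33 kept direction and call under all alternatives run, none reversed, and 98 of 1200 values no longer passed. The averaged strain differences of the 6 separated members kept theirs in all of them.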
